A study of Homo sapiens with 6 samples.

Results

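The genes described here are 76 members of the voltage-gated, ligand-gated and TRP (transient receptor potential) ion channel families, of 26364 gene symbols counted, chosen by symbol and by a minimum of 10 counts in at least 3 of 6 RNA-seq libraries. Ion channels are membrane proteins that open a pore for potassium, sodium, calcium or mixed cations, or for chloride. Voltage-gated channels open when the membrane potential changes, ligand-gated channels open when a transmitter binds, and channels of the TRP families respond to heat, stretch, lipids or chemicals. They are best known from nerve and muscle, but epithelial cells also use potassium and calcium channels to set the membrane potential and to let calcium in. The libraries were made from ZR-75-30 cells, an established human breast adenocarcinoma line with amplified ERBB2. The 3 CDK12 libraries came from cells infected with a lentivirus carrying CDK12 (pLVX-CDK12), and the 3 control libraries from cells infected with the control lentivirus (pLVX). The product of CDK12 is a cyclin K-dependent kinase that acts on the tail of RNA polymerase II while genes are transcribed. Both groups were thus infected lines, and the labels give neither the time after infection nor a selection step. The submitters call the samples biological replicates but do not state whether the infections were separate. The p-values therefore set a difference against the spread among these libraries, and that spread may be technical.

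The members were chosen by gene symbol: most of the potassium (KCN) channel families, the voltage-gated sodium (SCN) and calcium (CACN) channel families, the GABA-A receptors (GABR), the ionotropic glutamate receptors (GRIA, GRIK, GRIN) and the TRPA, TRPC, TRPM and TRPV families. The rule does not take the potassium channel symbols KCNU1, KCNV1 and KCNV2, of which KCNU1 and KCNV1 were tested and did not pass (log2 fold change 0.08 and -0.14, edgeR adjusted p = 0.755 and 0.401). Of the symbols counted, 221 matched these families, and 76 of them reached the minimum. The rule itself names no difference between the groups, but it was set with earlier results of these data known. The minimum was met through the control libraries only in 5 members and through the CDK12 libraries only in 2, of which 1 was tested. Of the 76, 72 encode channel subunits, and 4 share only the letters of the symbol. Those 4 are GRINA, a membrane protein named after glutamate receptors, TRPC4AP, a protein that binds a TRPC channel, and the non-coding RNAs KCNQ1OT1 and KCNMB2-AS1. The other 145 matched symbols were below the minimum: 23 had 0 counts in all 6 libraries, 67 had 1 to 10 counts in total, and 55 had more, with 53 counts in total as the highest.

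The libraries held 26543653, 23954798 and 23628890 counts in the CDK12 group and 23106302, 21178163 and 25014857 in the control group. Levels are given as CPM, counts brought to a common library size after TMM scaling, a correction for differences in library composition; a count of 3, the limit that a count of 0 allows, is 0.112 to 0.144 CPM and covers counting error only. CDK12 itself was at 2009, 2240 and 2124 CPM in the CDK12 libraries and at 79.0, 81.8 and 72.8 CPM in the control libraries, so each library matched its label. All 9 markers of luminal breast epithelium were detected, with summed levels of 12440 to 12990 CPM in the CDK12 libraries and 14110 to 14760 CPM in the control libraries. Most of each sum was the amplified ERBB2, at 7152 to 7645 CPM in the CDK12 libraries and 8338 to 8829 CPM in the control libraries. KRT8, KRT18, GATA3 and ERBB2 were lower with CDK12 by the test described next. Members took 0.193% to 0.204% of all counts in the CDK12 libraries and 0.206% to 0.217% in the control libraries.

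For the comparison of the groups, all 14665 genes that passed edgeR's filter on low counts entered its quasi-likelihood F test. P-values were adjusted by the Benjamini-Hochberg method over all of these, and are called edgeR adjusted p below, with a threshold of 0.05. Log2 fold changes are CDK12 over control. Of the 76 members, 75 were tested. KCNG3, a silent subunit that modifies voltage-gated potassium channels, was left out by the filter, with 15, 10 and 14 counts in the CDK12 libraries against 8, 8 and 3 in the control libraries. In bulk RNA, fewer cells that express a gene and less of its RNA per cell cannot be told apart.

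Most channel transcripts were scarce. Of the 72 channel subunits, 25 averaged under 1 CPM over the 6 libraries, 30 lay between 1 and 10 CPM, and 17 were over 10 CPM. To compare genes with each other, levels were divided by the length of the merged exons in kilobases. By that measure CACNG4, a gamma subunit best known for binding AMPA-type glutamate receptors, stood first at 53.2 ± 1.24 CPM per kb in the CDK12 libraries and 81.5 ± 1.04 CPM per kb in the control libraries (SD, n = 3 each). Next came CACNA1H, the pore subunit of a T-type calcium channel, with 19.8 ± 1.51 CPM per kb in the CDK12 libraries and 21.3 ± 1.07 CPM per kb in the control libraries. TRPM4, a calcium-activated channel that passes monovalent cations, was at 17.5 ± 0.883 CPM per kb in the CDK12 libraries and 22.5 ± 0.741 CPM per kb in the control libraries. The order of CACNA1H and TRPM4 differed between the groups, and within each group the values of the 2 genes overlapped.

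Below these stood potassium channels and TRPM7. KCNK1, a 2-pore potassium channel that carries background current, was at 14.1 ± 1.09 CPM per kb in the CDK12 libraries and 14.5 ± 0.0964 CPM per kb in the control libraries. KCNN4, the calcium-activated potassium channel of epithelia and lymphocytes, was at 12.1 ± 0.257 CPM per kb in the CDK12 libraries and 11.2 ± 0.280 CPM per kb in the control libraries. TRPM7, a magnesium- and calcium-permeable channel fused to a kinase, was at 9.17 ± 0.307 CPM per kb in the CDK12 libraries and 8.78 ± 0.419 CPM per kb in the control libraries. The pore subunit of the ATP-sensitive potassium channel, KCNJ11, was at 5.17 CPM per kb in the CDK12 libraries and 5.24 CPM per kb in the control libraries. KCNS3, a silent subunit, was at 5.11 CPM per kb in the CDK12 libraries and 5.74 CPM per kb in the control libraries. The L-type calcium channel pore CACNA1D was at 2.81 CPM per kb in the CDK12 libraries and 2.87 CPM per kb in the control libraries.

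**Figure D1:**
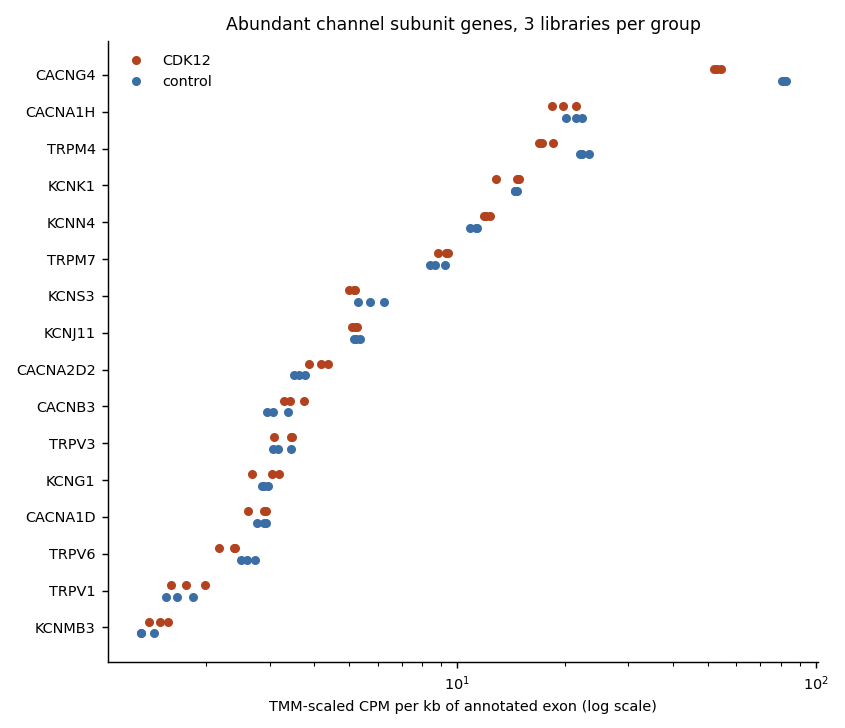
Levels of 16 channel subunits with many transcripts per length, in TMM-scaled CPM per kb of exon on a log axis, with 1 point for each library and the CDK12 libraries drawn apart from the control libraries. CACNG4 stands first in both groups, at 53.2 CPM per kb in the CDK12 libraries and 81.5 CPM per kb in the control libraries.

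The members passed the test about as often as all genes. Of the 75 tested, 29 (38.7%) passed, against 35.1% of all genes tested. Higher in the CDK12 libraries were 13 members (17.3%, against 16.2% of all genes), and lower were 16 (21.3%, against 18.9%). The median log2 fold change was 0.00 over the members, as it was over all genes. A change of 2-fold or more that also passed the threshold was seen in 12 members (16%), against 2.65% of all genes. Of these, 3 were higher (4%, against 1.11%) and 9 lower (12%, against 1.53%). The groups' libraries did not overlap in 32 members (42.7%), against 45.6% of all genes. In 15 of these (20%, against 22.1% of all genes) the CDK12 libraries were higher, and in 17 (22.7%, against 23.6%) lower.

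**Figure D2:**
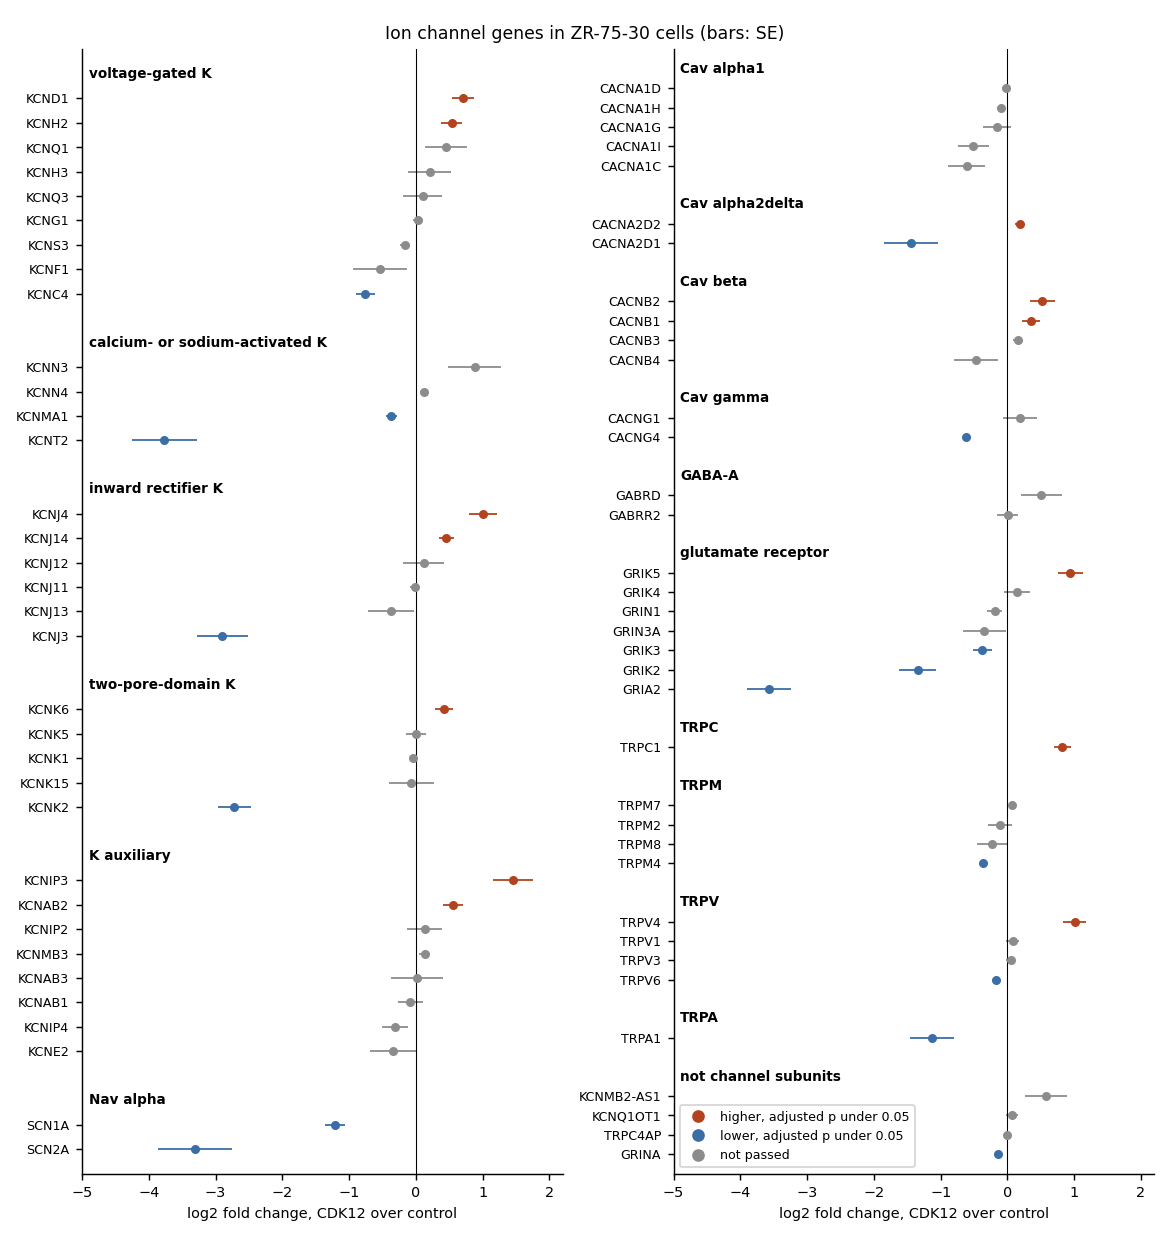
Log2 fold changes, CDK12 over control, of 70 of the 75 tested members by subfamily, with points for the estimate and bars for 1 SE on each side; colours mark members that were higher, lower or did not pass the threshold. Of those tested, 13 members were higher and 16 lower, and the estimates run from -3.77 for KCNT2 to 1.45 for KCNIP3.

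Large changes were more frequent among scarce genes, and most members are scarce. Among genes under 3 CPM, 11 of 45 members (24.4%) passed with 2-fold or more, against 10.7% of all genes tested. At 3 CPM or more it was 1 of 30 members (3.33%), against 0.534% of all genes. 6 of the tested members reached 10 counts in libraries of 1 group only, 5 in the control libraries and 1 in the CDK12 libraries, and so had to differ. They were CACNA2D1, GRIA2, KCNJ3, KCNT2 and SCN2A on the control side and KCNIP3 on the CDK12 side. With genes that had 10 counts in at least 1 library of each group, 23 of 69 members (33.3%) passed, against 34.5% of all such genes, and 6 (8.7%) passed with 2-fold or more, against 1.73%. Under 3 CPM, 5 of the 39 members so counted (12.8%) passed with 2-fold or more, against 6.55% of all such genes.

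The 8 largest falls among called members without overlap between the groups were those of KCNT2, GRIA2, SCN2A, KCNJ3, KCNK2, CACNA2D1, GRIK2 and SCN1A. Their levels in the control libraries lay between 0.487 and 6.02 CPM. These falls and the 8 largest rises below were picked in that way, so their lack of overlap was fixed by the choice. Of the neuron markers, 1 of 8 reached 10 counts in 3 libraries (SYT1, lower with CDK12 at a log2 fold change of -0.76, edgeR adjusted p = 0.000894). NEFL was at 0 in all 6 libraries and SNAP25 at 0 in the control libraries, and the 8 markers summed to 2.25 to 3.83 CPM in the CDK12 libraries and 4.0 to 4.99 CPM in the control libraries, most of it SYT1. The scarce markers went both ways: ELAVL3 had 7, 2 and 2 counts in the CDK12 libraries against 1, 1 and 1 in the control libraries, and STMN2 had 0, 1 and 0 against 3, 6 and 7. Among 4 leukocyte markers PTPRC was lower (10, 10 and 7 counts in the CDK12 libraries against 69, 59 and 74 in the control libraries) and CD14 higher, and the sums over the list were 1.07 to 1.54 CPM in the CDK12 libraries and 3.37 to 3.60 CPM in the control libraries. Of the neuroendocrine, fibroblast, endothelial and muscle markers, 1 in each list reached 10 counts in 3 libraries (SYP, COL1A1, VWF and TTN). The fibroblast markers summed to 60.1 to 71.1 CPM in the CDK12 libraries and 46.0 to 50.8 CPM in the control libraries, nearly all of it COL1A1. The part of other cell types in the falls was not tested.

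KCNT2 encodes a sodium-activated potassium channel, and lies on chromosome 1. It was at 0.0372, 0.0412 and 0.0834 CPM in the CDK12 libraries, against 0.703, 0.815 and 0.852 CPM in the control libraries (log2 fold change -3.77, SE 0.49, edgeR adjusted p = 8.41e-07). All CDK12 libraries were below all control libraries, with 1, 1 and 2 counts in the CDK12 libraries against 16, 17 and 21 in the control libraries. With so few counts the ratio of the summed counts, scaled by library size, is also given: KCNT2 was 14.9-fold higher in the control libraries (95% exact interval 5.48 to 56.5).

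GRIA2 on chromosome 4 encodes the AMPA receptor subunit whose edited form keeps calcium out of the pore. It was at 0.149, 0.206 and 0.0834 CPM in the CDK12 libraries, against 2.02, 1.82 and 1.58 CPM in the control libraries (log2 fold change -3.58, SE 0.33, edgeR adjusted p = 1.73e-09). Every CDK12 library held 5 counts or fewer and every control library 38 or more, and by summed counts GRIA2 was 12.3-fold higher in the control libraries (95% exact interval 6.65 to 25.3). GRIK2 on chromosome 6, a kainate receptor subunit, was at 0.892, 0.618 and 0.375 CPM in the CDK12 libraries, against 2.06, 1.63 and 1.22 CPM in the control libraries (log2 fold change -1.34, SE 0.27, edgeR adjusted p = 0.000368). The groups of GRIK2 did not overlap, but the libraries within each group spread widely.

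Both members of the voltage-gated sodium channel family that passed are pores of neurons, and both lie on chromosome 2. SCN2A was at 0.0372, 0 and 0.167 CPM in the CDK12 libraries, against 0.747, 0.911 and 0.487 CPM in the control libraries (log2 fold change -3.31, SE 0.55, edgeR adjusted p = 3.44e-05). It had 1, 0 and 4 counts in the CDK12 libraries against 17, 19 and 12 in the control libraries, and by summed counts was 10.6-fold higher in the control libraries (95% exact interval 4.23 to 34.0). SCN1A was less scarce, at 2.19, 2.02 and 3.0 CPM in the CDK12 libraries, against 6.02, 6.0 and 4.75 CPM in the control libraries (log2 fold change -1.21, SE 0.15, edgeR adjusted p = 3.53e-07). The lowest control library of SCN1A was well above the highest CDK12 library.

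The other large falls were of potassium and calcium channel genes. KCNK2, a 2-pore potassium channel opened by stretch and lipids, was at 0.335, 0.453 and 0.292 CPM in the CDK12 libraries, against 2.68, 2.49 and 2.03 CPM in the control libraries (log2 fold change -2.72, SE 0.25, edgeR adjusted p = 2.22e-09). KCNJ3 encodes a subunit of the G-protein-gated potassium channel, and was at 0.0743, 0.124 and 0.208 CPM in the CDK12 libraries, against 1.05, 0.959 and 1.05 CPM in the control libraries (log2 fold change -2.90, SE 0.38, edgeR adjusted p = 1.14e-06). The KCNJ3 counts were 2, 3 and 5 counts in the CDK12 libraries against 24, 20 and 26 in the control libraries, and by summed counts KCNJ3 was 7.71-fold higher in the control libraries (95% exact interval 3.95 to 16.8). CACNA2D1, the alpha2delta subunit that binds gabapentin, was at 0.112, 0.330 and 0.208 CPM in the CDK12 libraries, against 0.615, 0.528 and 0.609 CPM in the control libraries (log2 fold change -1.44, SE 0.40, edgeR adjusted p = 0.00668). In all 3 genes the groups did not overlap, as the choice of the genes required. CACNA2D1 had 3, 8 and 5 counts in the CDK12 libraries against 14, 11 and 15 in the control libraries. By summed counts CACNA2D1 was 2.75-fold higher in the control libraries (95% exact interval 1.51 to 5.27). It missed the threshold by the DESeq2 Wald test, at an adjusted p of 0.0513.

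The rises were smaller. KCNIP3, a calcium-binding protein that modifies voltage-gated potassium channels and also acts as a transcriptional repressor, was at 1.0, 1.24 and 0.917 CPM in the CDK12 libraries, against 0.351, 0.432 and 0.365 CPM in the control libraries (log2 fold change 1.45, SE 0.30, edgeR adjusted p = 0.000419). TRPV4, a cation channel opened by swelling and warmth, was at 2.53, 2.97 and 3.21 CPM in the CDK12 libraries, against 1.27, 1.49 and 1.54 CPM in the control libraries (log2 fold change 1.01, SE 0.18, edgeR adjusted p = 6.24e-05). KCNJ4, an inward rectifier that holds the resting potential, was at 2.01, 2.43 and 2.75 CPM in the CDK12 libraries, against 1.54, 1.15 and 0.893 CPM in the control libraries (log2 fold change 1.00, SE 0.21, edgeR adjusted p = 0.00042). These 3 were the members that rose 2-fold or more, and in none of them did the groups overlap, as the choice of the genes required.

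GRIK5, a kainate receptor subunit that forms channels only with a partner subunit, was at 2.38, 2.55 and 2.79 CPM in the CDK12 libraries, against 1.63, 1.20 and 1.18 CPM in the control libraries (log2 fold change 0.94, SE 0.18, edgeR adjusted p = 0.000246). It rose where GRIK2, one of its partners, fell. TRPC1, a cation channel subunit linked to receptor-operated calcium entry, was at 4.87, 5.36 and 5.13 CPM in the CDK12 libraries, against 2.77, 3.12 and 2.80 CPM in the control libraries (log2 fold change 0.82, SE 0.13, edgeR adjusted p = 1.46e-05). The TRPC1 libraries were tight within each group, at 5.12 ± 0.243 CPM in the CDK12 libraries and 2.90 ± 0.193 CPM in the control libraries (SD, n = 3 each). KCND1, an A-type voltage-gated potassium channel of the kind that KCNIP3 binds, was at 2.97, 3.01 and 4.0 CPM in the CDK12 libraries, against 2.29, 1.73 and 2.07 CPM in the control libraries (log2 fold change 0.70, SE 0.17, edgeR adjusted p = 0.00162). KCNAB2, a cytoplasmic beta subunit of such channels, was at 3.68, 3.29 and 4.04 CPM in the CDK12 libraries, against 2.68, 2.11 and 2.64 CPM in the control libraries (log2 fold change 0.56, SE 0.15, edgeR adjusted p = 0.00433). KCNH2, the rapid delayed rectifier of the heart, was at 2.86, 3.29 and 2.83 CPM in the CDK12 libraries, against 2.15, 2.16 and 1.91 CPM in the control libraries (log2 fold change 0.53, SE 0.16, edgeR adjusted p = 0.00924). The CDK12 libraries of these 5 genes were all above the control libraries, as the choice of the genes required. KCNH2 missed the threshold by the DESeq2 Wald test (adjusted p = 0.0579) and, by edgeR, without CDK12 replicate 2 (adjusted p = 0.0524).

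**Figure D3:**
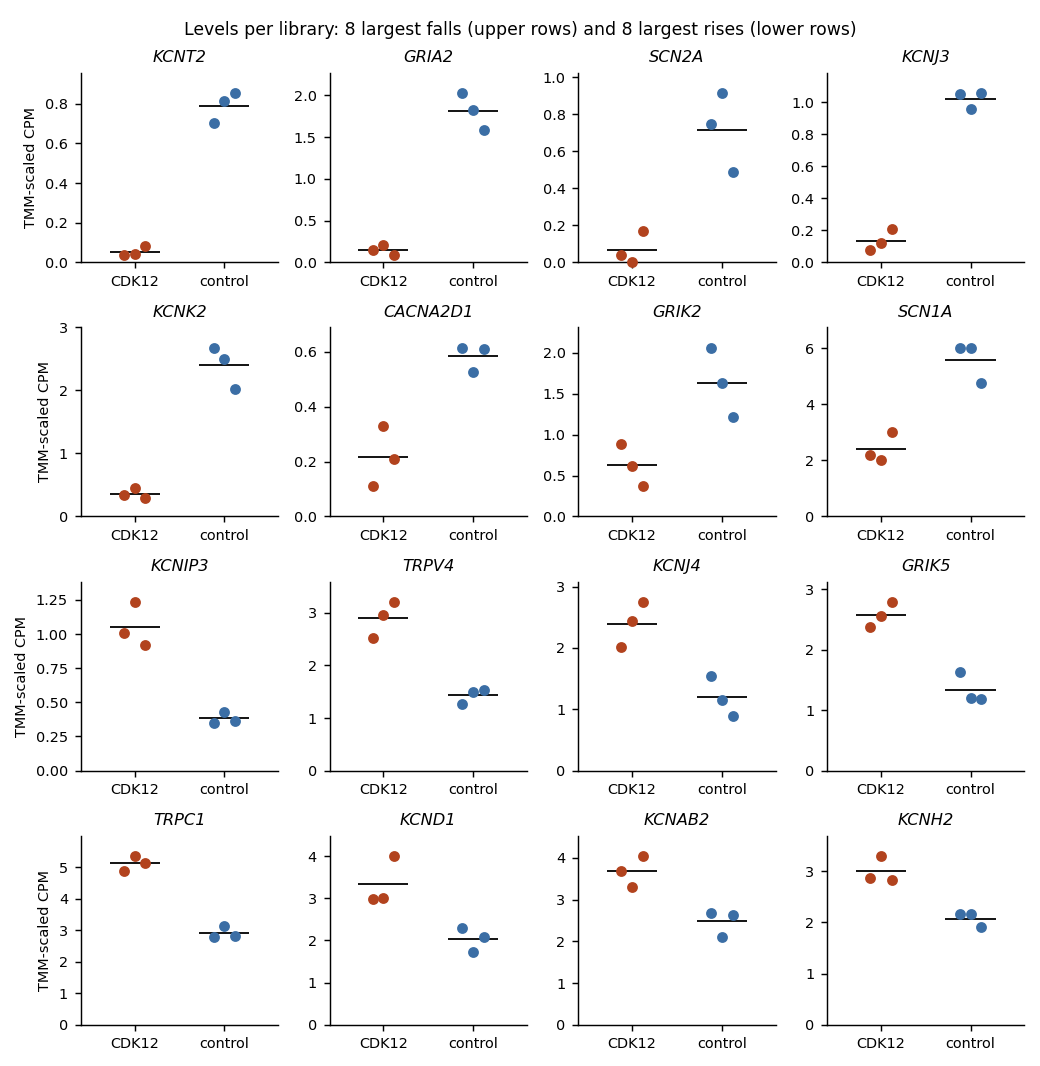
Levels of the 8 largest falls and the 8 largest rises among the members, in TMM-scaled CPM on an axis from 0, with 1 point for each library and a line at each group's mean. By the choice of the genes, the 3 CDK12 libraries lie below the 3 control libraries in each fall and above them in each rise. For KCNT2 the CDK12 libraries run from 0.0372 to 0.0834 CPM against 0.703 to 0.852 CPM in the control libraries.

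The promoters of 4 of these genes are shown because the data turn on how far their transcripts moved: for KCNT2 and KCNJ3 the largest falls, and for KCNIP3 and KCNJ4 the largest rises, among genes with 1 window in the RefSeq promoter table. Each window holds 300 bases of GRCh38.p14, 250 before and 50 after the annotated start, read 5′ to 3′ on the gene's strand. Capitals mark matches on either strand to the TATA box, with the letters TATAAA, which are in 12.7% of 22114 such windows. They also mark the GC box on either strand, held by 43.0% of the windows and spelled GGGCGG. Matches of the 2 motifs do not overlap in these windows.
KCNT2 promoter, chr1:196608391-196608690, minus strand: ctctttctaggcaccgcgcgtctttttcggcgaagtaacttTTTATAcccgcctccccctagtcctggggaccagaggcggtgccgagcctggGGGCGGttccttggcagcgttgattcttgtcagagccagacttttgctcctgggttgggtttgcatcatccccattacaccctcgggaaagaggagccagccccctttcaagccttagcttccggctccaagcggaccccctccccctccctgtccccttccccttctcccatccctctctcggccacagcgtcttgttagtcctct
KCNJ3 promoter, chr2:154698445-154698744, plus strand: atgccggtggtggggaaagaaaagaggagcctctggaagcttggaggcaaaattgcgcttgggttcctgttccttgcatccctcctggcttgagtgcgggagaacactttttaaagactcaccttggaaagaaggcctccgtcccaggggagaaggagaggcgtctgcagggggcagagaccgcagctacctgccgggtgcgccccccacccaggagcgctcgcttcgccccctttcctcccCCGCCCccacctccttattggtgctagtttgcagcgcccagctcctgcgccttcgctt
KCNIP3 promoter, chr2:95346408-95346707, plus strand: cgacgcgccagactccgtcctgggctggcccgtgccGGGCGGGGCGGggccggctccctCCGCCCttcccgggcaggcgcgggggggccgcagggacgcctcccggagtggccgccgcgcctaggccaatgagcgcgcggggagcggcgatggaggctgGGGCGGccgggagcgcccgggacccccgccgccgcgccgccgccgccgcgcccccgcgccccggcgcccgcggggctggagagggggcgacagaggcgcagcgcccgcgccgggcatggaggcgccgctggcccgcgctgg
KCNJ4 promoter, chr22:38443979-38444278, minus strand: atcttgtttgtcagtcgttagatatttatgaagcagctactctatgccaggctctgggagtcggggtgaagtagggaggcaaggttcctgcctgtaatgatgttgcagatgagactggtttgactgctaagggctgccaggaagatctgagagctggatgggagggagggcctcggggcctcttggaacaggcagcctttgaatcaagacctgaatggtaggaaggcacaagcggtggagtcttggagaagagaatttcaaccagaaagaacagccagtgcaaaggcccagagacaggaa
The KCNT2 window held 60.0% G and C, 15 CpG pairs, 1 TATA box and 1 GC box. The KCNJ3 window was alike in base content (61.7%, 15 CpG pairs), with 1 GC box and 0 TATA boxes. The KCNIP3 window was far richer, at 85.7% with 53 CpG pairs and 4 GC boxes, and the KCNJ4 window poorer, at 51.7% with 4 CpG pairs and neither motif. The median over all windows was 57.7% and 12 CpG pairs. A match is a description of these letters and not a binding site. Only 28 of the 75 tested members (37.3%) have a single window in the table, so a comparison over all members was void.

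Potassium channels made up 36 of the 76 members, from 93 potassium channel symbols in the tables. Of 35 tested, 7 were higher, 5 lower and 23 did not pass. Over all genes tested, 16.2% were higher and 18.9% lower. The same shares stand beside each family and subfamily below, whose few genes are given as a description. Among the voltage-gated potassium channel subunits, silent ones included, 2 of 12 tested were higher (KCND1, KCNH2) and 1 lower. The lower one was KCNC4, a fast channel of the Shaw type, at 2.75, 2.51 and 3.0 CPM in the CDK12 libraries, against 5.14, 4.08 and 4.71 CPM in the control libraries (log2 fold change -0.76, SE 0.14, edgeR adjusted p = 0.000105), with no overlap. The silent subunits KCNG1 (log2 fold change 0.03, edgeR adjusted p = 0.76) and KCNS3 (log2 fold change -0.17, edgeR adjusted p = 0.0837) did not pass, though KCNS3 did without control replicate 1 (adjusted p = 0.0422). Nor did KCNQ1 and KCNQ3 pass, whose log2 fold changes were 0.45 and 0.10. KCNH3 (log2 fold change 0.21, edgeR adjusted p = 0.659) and the silent KCNF1 (log2 fold change -0.54, edgeR adjusted p = 0.327) did not pass either.

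Among potassium channels opened by calcium or sodium, KCNT2 and KCNMA1 were lower and KCNN3 and KCNN4 did not pass. KCNMA1, the pore of the large-conductance calcium-activated channel, was at 10.9, 9.72 and 10.5 CPM in the CDK12 libraries, against 13.4, 14.3 and 12.6 CPM in the control libraries (log2 fold change -0.37, SE 0.08, edgeR adjusted p = 0.00117). KCNN4 was at 41.0, 40.5 and 42.2 CPM in the CDK12 libraries, against 38.5, 36.9 and 38.6 CPM in the control libraries (log2 fold change 0.11, SE 0.05, edgeR adjusted p = 0.103); its groups did not overlap, and it passed with upper-quartile factors (adjusted p = 0.0322) and with total counts (adjusted p = 0.0255) in place of TMM. KCNN3, a small-conductance relative, was uneven, at 1.08, 0.494 and 0.667 CPM in the CDK12 libraries, against 0.527, 0.0959 and 0.568 CPM in the control libraries (log2 fold change 0.88, SE 0.39, edgeR adjusted p = 0.0802). It passed without control replicate 3 (adjusted p = 0.0457), without CDK12 replicate 2 (adjusted p = 0.0355) and with no filter on low counts (adjusted p = 0.0435).

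The inward rectifiers held 6 members: KCNJ4 and KCNJ14 were higher, KCNJ3 was lower, and KCNJ11, KCNJ12 and KCNJ13 did not pass. KCNJ14 was at 6.54, 6.80 and 6.84 CPM in the CDK12 libraries, against 4.79, 4.80 and 5.07 CPM in the control libraries (log2 fold change 0.46, SE 0.11, edgeR adjusted p = 0.00144), with no overlap. KCNJ11 averaged 16.6 ± 0.230 CPM in the CDK12 libraries and 16.8 ± 0.301 CPM in the control libraries (SD, n = 3 each), a log2 fold change of -0.02 with a 95% interval of -0.16 to 0.12. KCNJ12 (log2 fold change 0.11, edgeR adjusted p = 0.802) has a near-identical copy in the genome, so its counts are uncertain. Among the 2-pore channels, of which 5 were tested, KCNK2 was lower and KCNK6 higher, at 4.13, 4.82 and 4.79 CPM in the CDK12 libraries, against 3.91, 3.02 and 3.29 CPM in the control libraries (log2 fold change 0.42, SE 0.13, edgeR adjusted p = 0.0157). KCNK6 no longer passed by the DESeq2 Wald test or without control replicate 2 or 3 or CDK12 replicate 2 or 3 (adjusted p from 0.0507 to 0.0755). KCNK1, the most abundant of the family, was at 46.6, 53.8 and 53.2 CPM in the CDK12 libraries, against 52.7, 53.1 and 52.4 CPM in the control libraries (log2 fold change -0.04, SE 0.06, edgeR adjusted p = 0.566). KCNK5 (log2 fold change -0.00, edgeR adjusted p = 0.99) and KCNK15 (log2 fold change -0.07, edgeR adjusted p = 0.895) did not pass.

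Of 8 auxiliary potassium channel subunits, KCNIP3 and KCNAB2 were higher and 6 did not pass. KCNMB3, a beta subunit of the large-conductance calcium-activated channel, averaged 13.3 ± 0.818 CPM in the CDK12 libraries and 12.1 ± 0.585 CPM in the control libraries (log2 fold change 0.13, edgeR adjusted p = 0.224). Exons of PIK3CA on the opposite strand cover 37.9% of its exons, and the strand setting of the counting is not known from the labels. KCNE2, a single-pass subunit, was set by 1 library: it was at 1.11, 0.371 and 0.334 CPM in the CDK12 libraries, against 0.835, 0.863 and 0.690 CPM in the control libraries (log2 fold change -0.34, edgeR adjusted p = 0.476). An antisense gene covers 34.2% of the KCNE2 exons. Without CDK12 replicate 1 its log2 fold change was -1.16 with an edgeR adjusted p of 0.0166. KCNAB1, KCNAB3, KCNIP2 and KCNIP4 did not pass, with log2 fold changes between -0.31 and 0.13.

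Calcium channel genes gave 13 members from 26 symbols, of which 3 were higher, 2 lower and 8 did not pass, beside 16.2% higher and 18.9% lower over all genes. By edgeR 0 of the 5 pore subunits passed; 3 had an unadjusted p under 0.05, and 0 passed by the DESeq2 Wald test or by limma-voom. CACNA1H was at 158, 169.5 and 184 CPM in the CDK12 libraries, against 191, 173 and 184 CPM in the control libraries (log2 fold change -0.10, SE 0.05, edgeR adjusted p = 0.111), and passed without control replicate 2 (adjusted p = 0.0458) or CDK12 replicate 3 (adjusted p = 0.018). CACNA1D was at 53.8, 60.3 and 59.5 CPM in the CDK12 libraries, against 60.4, 56.9 and 59.8 CPM in the control libraries (log2 fold change -0.03, SE 0.05, edgeR adjusted p = 0.699). In both the libraries of the groups overlapped. The scarcer CACNA1C (log2 fold change -0.61, edgeR adjusted p = 0.0845) and CACNA1I (log2 fold change -0.51, edgeR adjusted p = 0.0823) passed without control replicate 2, at adjusted p of 0.0243 and 0.0299, and CACNA1I also without CDK12 replicate 2 (adjusted p = 0.0484). A further T-type pore, CACNA1G, did not pass (log2 fold change -0.16, edgeR adjusted p = 0.596).

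The auxiliary calcium channel subunits moved in both directions. CACNG4 was the clearest fall of any member by its p-value, at 184, 179 and 176 CPM in the CDK12 libraries, against 271, 276 and 278 CPM in the control libraries (log2 fold change -0.61, SE 0.04, edgeR adjusted p = 1.84e-12). The 3 control libraries of CACNG4 lay within 10 CPM of each other and far above the CDK12 libraries. CACNG1, the gamma subunit of skeletal muscle, did not pass (log2 fold change 0.19, edgeR adjusted p = 0.603). The summed level of all 72 channel subunits was 1020, 1051 and 1084 CPM in the CDK12 libraries, against 1195, 1171 and 1185 CPM in the control libraries. Without CACNG4 it was 836, 872 and 908 CPM in the CDK12 libraries and 923, 895 and 907 CPM in the control libraries, so that the groups overlapped.

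Of the alpha2delta subunits, which help channels to reach the membrane, CACNA2D1 was lower and CACNA2D2 higher, at 24.5, 27.6 and 26.3 CPM in the CDK12 libraries, against 22.1, 23.8 and 23.0 CPM in the control libraries (log2 fold change 0.18, SE 0.07, edgeR adjusted p = 0.0297). The beta subunits, which bind the pore from inside the cell, gave 2 rises. CACNB2 was at 1.86, 2.02 and 2.13 CPM in the CDK12 libraries, against 1.32, 1.49 and 1.38 CPM in the control libraries (log2 fold change 0.52, SE 0.19, edgeR adjusted p = 0.0309). CACNB1 was at 4.87, 7.08 and 6.88 CPM in the CDK12 libraries, against 5.01, 4.41 and 5.20 CPM in the control libraries (log2 fold change 0.35, SE 0.13, edgeR adjusted p = 0.0354). CACNB3 (log2 fold change 0.15, edgeR adjusted p = 0.0934) and CACNB4 (log2 fold change -0.47, edgeR adjusted p = 0.271) did not pass. The CACNB1 groups overlapped, since CDK12 replicate 1 lay below control replicates 1 and 3. These 3 rises were small, and CACNA2D2, CACNB1 and CACNB2 had adjusted p of 0.0684, 0.0937 and 0.141 by the DESeq2 Wald test. Each was also lost when any of 4 of the libraries was left out: control replicate 1 and CDK12 replicates 2 and 3 for all 3 genes, with control replicate 2 for CACNB1 and control replicate 3 for the other genes (adjusted p from 0.0594 to 0.179). CACNB3 passed with upper-quartile factors or total counts (adjusted p = 0.0354 and 0.0313), and without control replicate 1 or CDK12 replicate 1 (adjusted p = 0.0413 and 0.0443).

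Among ligand-gated channels, 7 glutamate receptor subunits and 2 GABA-A receptor subunits were members, from 16 and 19 symbols. The AMPA subunit GRIA2 and the kainate subunits GRIK2 and GRIK3 were lower, and the kainate subunit GRIK5 was higher. GRIK3 was at 2.38, 2.39 and 2.58 CPM in the CDK12 libraries, against 3.12, 2.93 and 3.45 CPM in the control libraries (log2 fold change -0.38, SE 0.15, edgeR adjusted p = 0.0492). Its groups did not overlap, but it missed the threshold under every alternative that refitted the model except the one without control replicate 2. The NMDA subunit GRIN1, which every NMDA receptor needs, was at 4.50, 4.98 and 4.71 CPM in the CDK12 libraries, against 5.14, 5.42 and 5.64 CPM in the control libraries (log2 fold change -0.19, SE 0.11, edgeR adjusted p = 0.192), and GRIN3A (log2 fold change -0.35, edgeR adjusted p = 0.423) and the kainate subunit GRIK4 (log2 fold change 0.14, edgeR adjusted p = 0.607) did not pass either. By edgeR 0 of the 2 GABA-A subunits passed, 0 had an unadjusted p under 0.05, and 0 passed by the DESeq2 Wald test or limma-voom. GABRR2 averaged 2.73 ± 0.328 CPM in the CDK12 libraries and 2.72 ± 0.367 CPM in the control libraries (log2 fold change 0.00, edgeR adjusted p = 0.995), and GABRD was at 0.557, 0.947 and 0.709 CPM in the CDK12 libraries, against 0.527, 0.576 and 0.447 CPM in the control libraries (log2 fold change 0.51, SE 0.31, edgeR adjusted p = 0.212).

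The TRP families gave 10 members from 21 symbols, with 2 higher, 3 lower and 5 that did not pass, beside 16.2% higher and 18.9% lower over all genes. TRPM4 was at 114, 112 and 122 CPM in the CDK12 libraries, against 147, 145 and 154 CPM in the control libraries (log2 fold change -0.36, SE 0.05, edgeR adjusted p = 4.74e-07), a modest fall with no overlap in one of the more abundant channels. TRPM7 was at 117, 115 and 109 CPM in the CDK12 libraries, against 104, 114 and 108 CPM in the control libraries (log2 fold change 0.06, SE 0.05, edgeR adjusted p = 0.294), with overlap. TRPA1, the irritant receptor of sensory neurons, was at 0.297, 0.371 and 0.459 CPM in the CDK12 libraries, against 0.791, 1.10 and 0.609 CPM in the control libraries (log2 fold change -1.13, SE 0.33, edgeR adjusted p = 0.0091). The groups did not overlap. TRPA1 was lost by the DESeq2 Wald test (adjusted p = 0.0551) and without control replicate 2 (adjusted p = 0.069). Exons of the antisense gene MSC-AS1, at a mean of 0.0437 CPM, cover 15.4% of the TRPA1 exons. TRPV6, a calcium-selective channel of epithelia, was at 25.8, 28.6 and 28.5 CPM in the CDK12 libraries, against 32.5, 29.8 and 30.9 CPM in the control libraries (log2 fold change -0.17, SE 0.06, edgeR adjusted p = 0.0356). The difference was small, and 6 alternatives lost the call, with adjusted p from 0.0774 to 0.175. TRPV1 (log2 fold change 0.08, edgeR adjusted p = 0.544), TRPV3 (log2 fold change 0.05, edgeR adjusted p = 0.613), TRPM2 (log2 fold change -0.11, edgeR adjusted p = 0.679) and TRPM8 (log2 fold change -0.23, edgeR adjusted p = 0.48) did not pass.

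Of the 4 matched symbols that are not channel subunits, GRINA was the most abundant gene matched by the rule. It was at 728, 725 and 765 CPM in the CDK12 libraries, against 843, 761 and 848 CPM in the control libraries (log2 fold change -0.14, SE 0.04, edgeR adjusted p = 0.0103), and it was lost with upper-quartile factors (adjusted p = 0.056), with total counts (adjusted p = 0.0644) and without control replicate 1 or 3 (adjusted p = 0.0692 and 0.0855). TRPC4AP averaged 145 ± 1.91 CPM in the CDK12 libraries and 146 ± 1.95 CPM in the control libraries (log2 fold change -0.01, edgeR adjusted p = 0.873). KCNQ1OT1, an antisense RNA of an imprinted locus, averaged 13.7 ± 1.13 CPM in the CDK12 libraries and 13.0 ± 1.88 CPM in the control libraries (log2 fold change 0.07, edgeR adjusted p = 0.579), and KCNMB2-AS1 did not pass either (log2 fold change 0.57, edgeR adjusted p = 0.165).

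The share of long members that fell was near that of all long genes once the 6 members with 10 counts in 1 group only were left out. Gene spans, from start to end with introns, came from GENCODE 29 and were not used to choose the members. The tested members had a median span of 68.7 kb, against 31.2 kb for all genes tested. It was 163 kb in the 16 lower members (3.36 to 889 kb), 50.3 kb in the 13 higher members (10.2 to 403 kb) and 58.3 kb in the 46 that did not pass. CACNA2D1, GRIA2, KCNJ3, KCNT2 and SCN2A, which reached 10 counts in the control libraries only, all span over 100 kb. Without them the median of the other 11 lower members was 71.8 kb, and without KCNIP3 that of the other 12 higher members was 41.8 kb. Of 30 members of 100 kb or more, 10 (33.3%) were lower, against 22.5% of all genes of that span. With genes that had 10 counts in a library of each group, it was 5 of 25 members (20%), against 20.9% of all such genes, and 3 members (12%) were higher, against 12.4%. Of 44 shorter members counted in the same way, 6 (13.6%) were lower, against 18.4% of all shorter genes, and 9 (20.5%) higher, against 16.8%.

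With both limits set, at under 3 CPM and 100 kb or more, 8 of 23 members (34.8%) were lower, against 29.4% of all such genes, and 7 (30.4%) fell 2-fold or more, against 20.6%. With 10 counts in a library of each group the order was the other way, with 3 of 18 members (16.7%) lower, against 21.7%, and 2 (11.1%) lower by 2-fold or more, against 11.8%. Over the 75 members, log10 span and log2 fold change had a Pearson correlation of -0.28 and a Spearman correlation of -0.27, against -0.13 and -0.05 over 14261 genes with a span. Over the 69 members with 10 counts in each group they were -0.19 and -0.18, against -0.10 and -0.04 over 14096 such genes. These points share the same 6 libraries and are given as a description. GRIK2, the longest member that fell, spans 889 kb. KCNIP4 (1220 kb; log2 fold change -0.31, edgeR adjusted p = 0.212), KCNAB1 (501 kb; log2 fold change -0.08, edgeR adjusted p = 0.776) and CACNA1D (485 kb) did not pass, and CACNB2 rose at 403 kb.

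**Figure D4:**
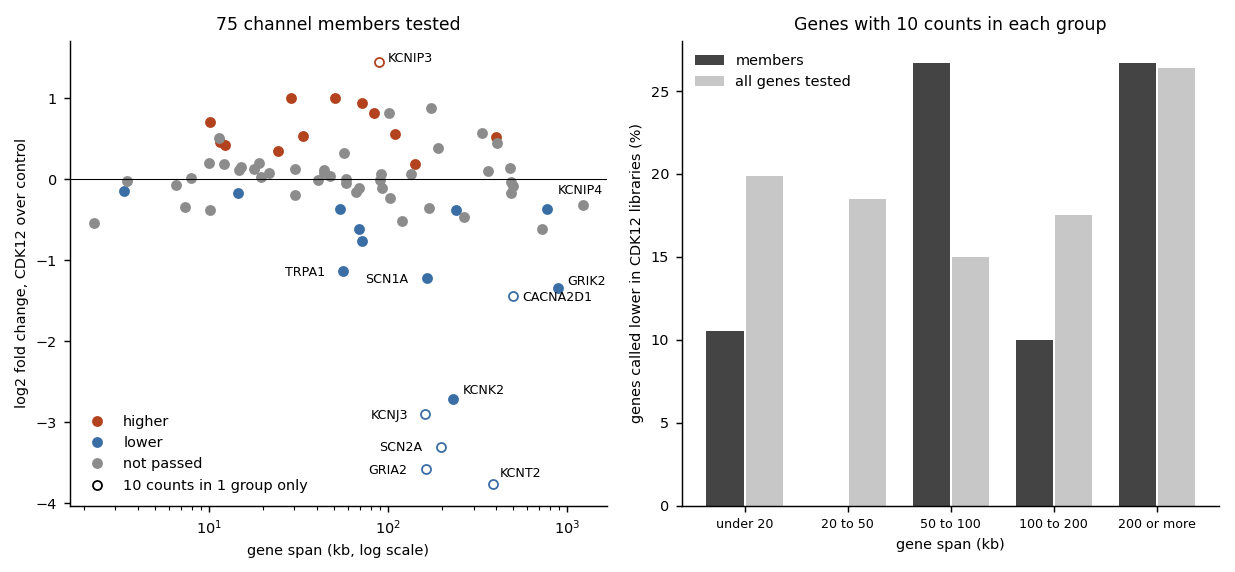
Gene span in kb on a log axis against the log2 fold change, CDK12 over control, with 1 point for each of the 75 tested members and open points for those with 10 counts in 1 group only. Beside it is the share that was lower in each class of span, for members and all genes with 10 counts in a library of each group: at 200 kb or more it was 4 of 15 members (26.7%) and 26.4% of all such genes.

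Channels, ion pumps and some associated proteins outside the rule (such as STIM1, FGF12 and CNIH2), listed by symbol, also moved in both directions. Of 141 such genes, 88 were tested, of which 18 were higher, 19 lower and 51 did not pass (42% passed, against 35.1% of all genes), with a median log2 fold change of -0.02. Over all genes tested, 16.2% were higher and 18.9% lower. With genes that had 10 counts in a library of each group, 18 of the listed genes were higher and 16 lower, and no share of them was taken. Over all such genes, 16% were higher and 18.5% lower. CFTR, the chloride channel of secretory epithelia, was at 0.112, 0.288 and 0.125 CPM in the CDK12 libraries, against 3.38, 2.45 and 2.96 CPM in the control libraries (log2 fold change -4.05, SE 0.29, edgeR adjusted p = 1.79e-11), and spans 250.2 kb. In CDK12 replicates 1 and 3 CFTR was at the level of a count of 3. It reached 10 counts in the control libraries only, and so had to differ. PIEZO1, a stretch-activated cation channel, was at 131 ± 9.83 CPM in the CDK12 libraries and 164 ± 8.67 CPM in the control libraries (log2 fold change -0.32, SE 0.05, edgeR adjusted p = 1.2e-05). On the other side stood ATP1B3, a beta subunit of the sodium pump, at 260.4 ± 20.6 CPM in the CDK12 libraries and 189 ± 1.14 CPM in the control libraries (log2 fold change 0.46, SE 0.05, edgeR adjusted p = 1.06e-08), ATP2A3, a calcium pump of the endoplasmic reticulum, at 9.09 ± 0.928 CPM in the CDK12 libraries and 4.61 ± 0.123 CPM in the control libraries (log2 fold change 0.98, SE 0.11, edgeR adjusted p = 5.62e-08), and ANO1, a calcium-activated chloride channel, at 33.9 ± 0.391 CPM in the CDK12 libraries and 23.6 ± 0.455 CPM in the control libraries (log2 fold change 0.52, SE 0.06, edgeR adjusted p = 1.05e-07; SD, n = 3 each).

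At the edge of the rule, 9 members had 10 counts in exactly 3 libraries, and 6 symbols had them in exactly 2 and were left out. Of those 6, KCNC2 had 1, 1 and 0 counts in the CDK12 libraries and 13, 10 and 8 in the control libraries, and SCN9A had 2, 6 and 2 in the CDK12 libraries and 12, 8 and 12 in the control libraries. GRIN2C, KCNK9 and KCNMA1-AS3 had between 2 and 16 counts in each library. Antisense and overlapping genes are uncertain: in 9 members, exons of a gene on the opposite strand cover 10% or more of the member's exons. Beside those given above, they include KCNJ13 (24.3%, GIGYF2), GRINA (12.8%, PARP10), KCNJ14 (16.5%) and KCNJ4 (12.6%). TRPV1 shares 27.5% of its exons with a read-through gene on the same strand. KCNJ14 shares 8.06% of its exons with GRWD1, also on the same strand and at a mean of 85.3 CPM.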

How the data were processed

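RNA was measured by polyA-selected, paired-end RNA-seq with a strand-marking kit, per the labels' protocols. Values in the deposited files are raw counts per gene symbol, whole numbers whose totals differ between libraries. Per the submitters' processing notes, CASAVA 1.8, STAR 2.6.0c, featureCounts and Subread 1.6.2 were used with build hg19. The sources used here do not give the strand setting or the annotation of the counting, so antisense, overlapping and near-identical genes are uncertain. Library totals ran from 21178163 to 26543653 counts.

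All 6 libraries were fitted with edgeR 4.0.16 in R 4.3.3: filterByExpr (minimum count 10, minimum total 15), TMM scaling, and a two-sided quasi-likelihood F test of group with no other term, with Benjamini-Hochberg adjustment over the 14665 genes tested. Standard errors (SE) were the absolute log2 fold change over the square root of F. The test was checked on simulated data. No 2 libraries of a group agreed within sampling noise. Counts were also shown as CPM, with a counting floor of 3 counts per library, and as ratios of summed counts with exact 95% intervals, which cover counting error only. Spans and exon lengths came from GENCODE 29 (GRCh38) by symbol, and promoter sequences from RefSeq (GRCh38.p14); no coordinates of the counted build were used.

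The members and lists were chosen with earlier results of these data known. Named in full were the 8 most abundant members, the 8 largest rises and 8 largest falls among called members without overlap, and the called member with the smallest p in each subfamily and direction (30 members in all). Other members were named after their values were seen, and some genes are not reported here. Alternatives were other scalings (DESeq2 1.42.0 size factors, upper quartile, total counts), 3 other filters, the DESeq2 Wald test, limma-voom (limma 3.58.1), the replicate number as a block, leaving out each library, channel subunits only, and CDK12 left out of the counts. Counts were also taken over genes with 10 counts in a library of each group, chosen after seeing the data.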

Additional observations from a re-analysis of the deposited data

How the results depend on the processing

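All 29 members that passed kept the direction of their fold change under each of the 17 alternatives listed that tested them, and 19 (8 higher, 11 lower) passed under every one that did; the filter of 1 CPM in 3 libraries tested 51 members. With a filter of 1 CPM in 3 libraries 12 members were higher and 10 lower, and over all genes 2342 were higher and 2569 lower. Of the 16 lower members, 5 were no longer tested and GRIK3 (edgeR adjusted p = 0.051) no longer passed. With that filter 6 members passed with 2-fold or more and 5 of 100 kb or more were lower, for which no share over all genes was taken. By the DESeq2 Wald test 8 members were higher and 12 lower, and over all genes 1699 were higher and 2275 lower. What caused these changes was not tested. The median log2 fold change of the members, 0.00148, was 0.0379 with upper-quartile factors and 0.0437 with total counts, settings that moved the median of all genes by 0.0366 and 0.0423. With both settings 15 members were higher and 13 lower, against 13 and 16 with TMM. Over all genes, 2371 were higher and 2772 lower with TMM, 3164 and 2144 with upper-quartile factors, and 3324 and 2064 with total counts. Counting genes with 10 counts in a library of each group was chosen after seeing the data; it left 6 of the 12 members that passed with 2-fold or more and 5 of the 10 lower members of 100 kb or more, with a median of 0.0343.

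Leaving out 1 library in turn gave 9 to 14 higher and 13 to 18 lower members, and medians from -0.028 to 0.0442. For all genes it gave 1789 to 2310 higher and 2199 to 2735 lower. For the other channels, pumps and associated proteins it gave 14 to 17 higher and 13 to 18 lower. Whether replicate numbers pair the samples was not settled. Same-numbered libraries had correlations of -0.117, 0.135 and 0.0826 over 13252 genes, and differently numbered libraries had correlations from -0.174 to 0.0885. With the replicate block 12 members were higher and 15 lower, as GRIK3 (adjusted p = 0.0578) and CACNB1 (adjusted p = 0.0503) no longer passed in edgeR. Over all genes the block gave 2330 higher and 2776 lower. GRIK3, at an adjusted p of 0.0492, ran from 0.0507 to 0.199 under the alternatives that lost it.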
